A study of Mus musculus with 1037 samples.

Results

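The cathepsin genes are 10 genes that encode proteases of the lysosome: *Ctsa*, *Ctsb*, *Ctsc*, *Ctsd*, *Ctsf*, *Ctsh*, *Ctsk*, *Ctsl*, *Ctss* and *Ctsz*. They were found by matching the 55335 gene identifiers of the count table to the GENCODE annotation of GRCm39, in which each of the 10 symbols matched 1 row. Levels were compared over sorted single cells of the mouse hair follicle outer root sheath (ORS), profiled by Smart-seq2, which makes a full-length cDNA library from the RNA of 1 cell in a well. All mice were wild type and untreated, and cells of 3 to 6 mice were pooled for a hair cycle stage before sorting.

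The groups follow the sample titles. LOS holds cells of the lower ORS in late anagen (AnaVI, the end of hair growth), and MOS and UOS are AnaVI sorts from a region labelled upper-middle ORS. The plates titled P17f hold upper ORS cells of CatVI, a stage of catagen, in which the follicle regresses. Plates 1 and 2 are titled PhagoHFSC alive, plates 3 and 4 NonPhagoHFSC alive, plate 5 PhagoHFSC apop and plate 6 NonPhagoHFSC apop, where HFSC stands for hair follicle stem cell. The gate behind Phago and the letter f are not explained in the labels. OSalive and OSapop are upper ORS cells of CatVII, a later stage of catagen, and alive and apop name the sort by staining for cell death. The labels give no age beyond P17 in the plate titles, and the study's methods only a range in weeks for all its mice.

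Cells with 2000 or more detected genes were kept, which left 39 of 93 cells in LOS, 38 of 72 in MOS, 19 of 88 on plate 1, 9 of 73 on plate 2, 15 of 85 on plate 5 and 14 of 69 on plate 6. In the larger groups 83.6% of UOS cells (all but 22), 80.1% of OSalive cells (all but 31) and 65.2% of OSapop cells (92, with 49 left out) passed. No cell of plate 3 (0 of 67) or plate 4 (0 of 57) passed, so that 9 groups with 463 cells are described. Because no animal is named, each group is 1 sample. No test between groups was possible and no error between mice can be given. Stage cannot be told apart from the pool of mice, and on the CatVI plates sort cannot be told apart from plate. The well and library numbers in the CatVII titles rise in 2 series, in which alive cells come first and apop cells follow. They put all 92 OSapop cells and all but 7 OSalive cells into set 1 (45 OSapop and 57 OSalive cells) or set 2 (47 and 61), and whether these are separate pools of mice is not stated. Levels are counts-per-million values (CPM) of the summed counts of genes with a name in the annotation, and the depth behind them ran from 441410 such counts on plate 6 to 55537430 in OSalive. Intervals are 95% limits, exact Poisson for CPM and exact binomial (Clopper-Pearson) for shares and for ratios of CPM. They cover the error of counting and nothing else: the reads carry no molecular identifiers, so that several can stem from 1 molecule. A pair of groups is called apart here when their CPM differ at least 2-fold with at least 100 counts over both.

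Some groups held RNA of cells other than the ORS. The summed level of 12 ORS markers, all with counts in every group, was lowest on plate 2 (4714 CPM) and in LOS (6692 CPM) and between 12507 and 28390 CPM elsewhere. On plate 5, where the sum was highest, *Krt14* (13137 CPM) and *Krt5* (8446 CPM) led it. *Cd34*, whose protein was a marker of the sort, was at 5.73, 33.8, 7.05 and 9.06 CPM on plates 1, 2, 5 and 6. It was at 98.8 CPM in LOS, 98.4 in MOS, 321 in UOS, 575 in OSalive and 481 in OSapop. Fibroblast markers summed to 5572 CPM in LOS (6 of 6 with counts) and to between 15.9 and 1411 CPM in the other groups. Melanocyte markers summed to 722 CPM in LOS and 610 CPM on plate 2, with 6 of 6 detected in each, and to at most 54.7 CPM elsewhere. Markers of the inner root sheath and matrix, the layers inside the ORS, summed to 3546 CPM in UOS and 1470 CPM in LOS, and to at most 449 CPM in the other groups. Plates 1 and 2 carry the same title, and of 3773 genes with 100 or more counts 47.3% lay 2-fold apart between them. Between sets 1 and 2 it was 24.7% of 13067 genes in OSalive and 25.5% of 10071 genes in OSapop.

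Cathepsins break down protein that reaches the lysosome through endocytosis, autophagy or the engulfment of dead cells. Most are cysteine proteases. *Ctsd* encodes an aspartic protease and *Ctsa* a serine carboxypeptidase. They are made as inactive precursors, carried to the lysosome on mannose 6-phosphate receptors and activated in its acid, and cystatins hold the cysteine cathepsins in check outside it. In skin *Ctsl* is best known: mice without it lose hair periodically and show disturbed follicle cycling.

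*Ctsd*, *Ctsb* and *Ctsa* carried most of the cathepsin counts in every group. Per kilobase of the canonical transcript, which allows levels of different genes to be compared, the mean level over the 9 groups was 294.02 CPM per kb for *Ctsd*, 141.8 CPM per kb for *Ctsb* and 49.6 CPM per kb for *Ctsa*. *Ctsf* (37.9 CPM per kb), *Ctsl* (17.95), *Ctsc* (16.5), *Ctsh* (12.98) and *Ctsz* (8.73) followed, and *Ctss* (1.88) and *Ctsk* (0.608) came last. The transcript of *Ctsl* is annotated at 5908 bases, the longest of the 10, and that of *Ctss* at 1366 bases, the shortest. With coding length in place of transcript length *Ctsb* came first with 666 CPM per kb, before *Ctsd* with 508 CPM per kb. *Ctsl* was then at 105.9 CPM per kb, above *Ctsf* at 55.2. With the length of all exons of a gene merged, *Ctsl* (15.9 CPM per kb), *Ctsz* (8.06) and then *Ctsf* (7.81) came after *Ctsa*. The 10 genes together made up 720 CPM on plate 2, the lowest, and 2743 CPM in MOS, the highest, with 2702 CPM on plate 5. Mitochondrial genes, which are among the named genes, took the largest share of counts on plate 2 (32.8%) and the smallest in MOS (8.55%). Their share was 15.5% on plate 5 and 21.8% on plate 6, and its part in the cathepsin levels was not tested. In cells thinned to 20000 counts of named genes, so that cells of unlike depth could be compared, the median number of cathepsins with a count was 6 in LOS, 5 in MOS and UOS and 4 in each of the 6 catagen groups. In LOS 21 of 39 cells had that depth. Before thinning, all 10 LOS cells with *Ctsh* and 14 of the 18 with *Ctsc* carried several markers of another cell type. LOS cells with such markers were on average deeper than the other LOS cells, and the part of depth in this was not tested.

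**Figure D1:**
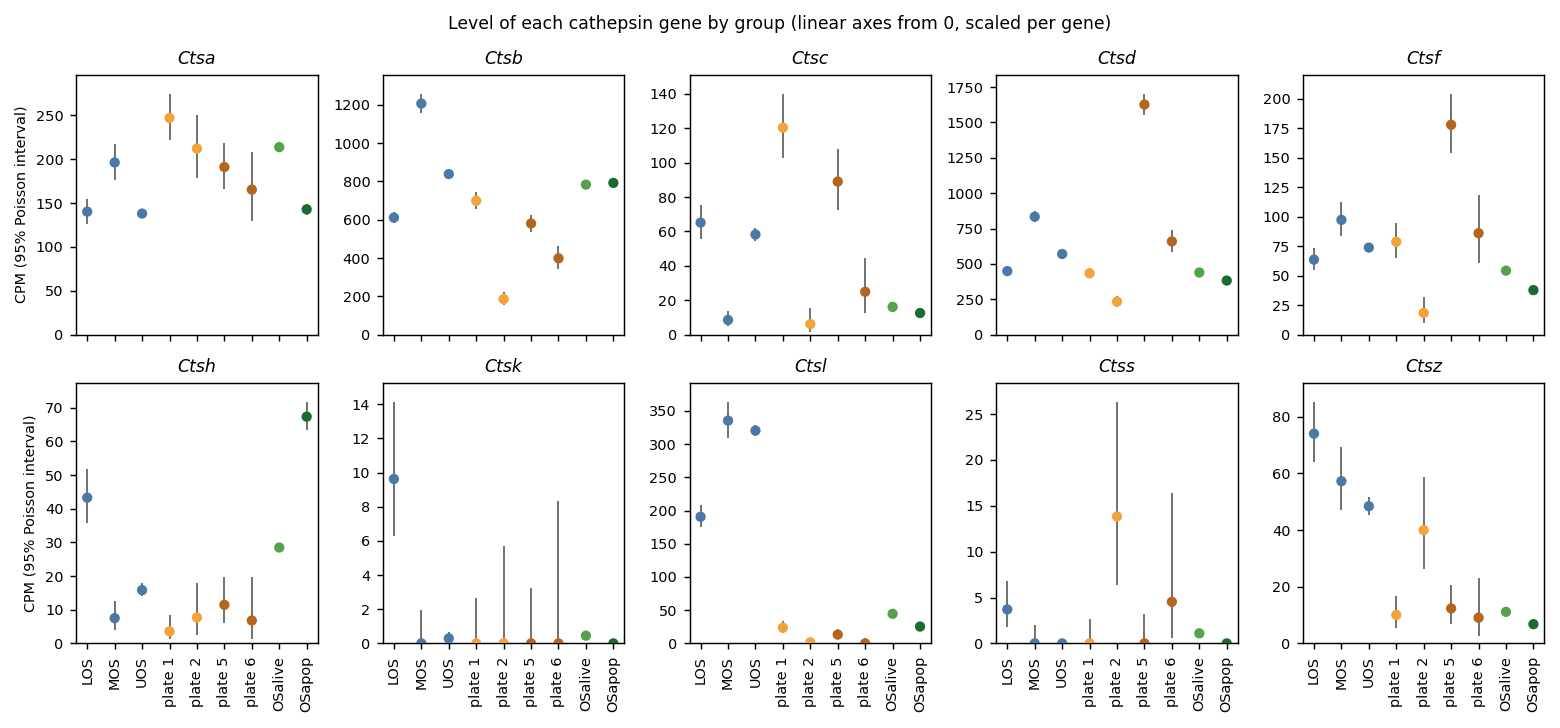
CPM of each cathepsin gene (y axis, linear from 0, scaled for each gene) in the 9 groups (x axis), with lines for the 95% Poisson interval. Blue marks AnaVI, orange and brown the CatVI plates and green CatVII. *Ctsl* lies between 190.6 and 335 CPM in the 3 AnaVI groups and at 44.5 CPM or less in the 6 catagen groups.

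*Ctsb* (ENSMUSG00000021939.8, chr14:63358384-63383372, plus strand, GRCm39) encodes cathepsin B, which acts both as an endopeptidase and as a peptidyl-dipeptidase. Its level was 611 CPM in LOS, 1207 in MOS, 839 in UOS, 699 on plate 1, 186.04 on plate 2, 581 on plate 5, 399 on plate 6, 784 in OSalive and 793 in OSapop. MOS was highest and plate 2 lowest, and the intervals of OSapop (778 to 807) and OSalive (776 to 791) overlapped. Counts of *Ctsb* were found in 454 of 463 cells. After thinning, 99.1% of UOS cells (all but 1), 98.4% of OSalive cells (all but 2) and each of 80 OSapop cells had one. The gene made up between 21.5% of all cathepsin counts on plate 5 and 53.99% in OSapop.

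*Ctsd* (ENSMUSG00000007891.16, chr7:141929646-141941775, minus strand) encodes cathepsin D, the main aspartic protease of the lysosome. It reached 449 CPM in LOS, 834 in MOS, 570 in UOS, 433 on plate 1, 233.7 on plate 2, 1626 on plate 5, 659 on plate 6, 440 in OSalive and 383 in OSapop. Plate 5, the Phago apop plate, stood highest with an interval of 1553 to 1702 CPM, clear of MOS (793 to 876), the next group. The levels of LOS, OSalive and plate 1 had overlapping intervals. On plate 5 the median cell was at 1216 CPM and the cell with the most *Ctsd* counts gave 19.4% of them, whereas on plate 6 a single cell gave 45.7%. *Ctsd* was 60.2% of the cathepsin counts on plate 5 and between 26.1% and 48.7% in the other groups.

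*Ctsf* (ENSMUSG00000083282.3, chr19:4905118-4915986, plus strand), which encodes the cysteine protease cathepsin F, followed a like course at lower levels. It was at 63.7 CPM in LOS, 97.4 in MOS, 73.9 in UOS, 78.8 on plate 1, 18.5 on plate 2, 177.96 on plate 5, 86.1 on plate 6, 54.3 in OSalive and 37.8 in OSapop. Plate 5 was again highest and plate 2 lowest, and the intervals of MOS, plate 6, plate 1, UOS and LOS overlapped from each to the next. After thinning, 93.3% of plate 5 cells (14 of 15, interval 68.1% to 99.8%) had a count of *Ctsf*, against 54.5% on plate 6 (6 of 11, 23.4% to 83.3%) and 55.6% on plate 1 (10 of 18, 30.8% to 78.5%), whose intervals overlap that of plate 5. Over the 9 groups, the 3 named genes whose log2(CPM + 1) correlated most with that of *Ctsd*, among 13875 compared, were *Idh1* (Pearson's r = 0.94), which encodes cytosolic isocitrate dehydrogenase, *Slc22a15* (r = 0.94), a member of the organic cation transporter family, and *Ctsf* itself (r = 0.93). Groups of a stage share a pool of mice, so the values are a description. Over single cells after thinning, *Ctsd* and *Ctsf* counts had a Spearman rho of -0.01 in UOS and 0.05 in OSalive.

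*Ctsd* and *Ctsf* both have an E-box in their promoter, and the bases around it are shown because the letters CACGTG are the core of the element bound by TFEB, TFE3 and MITF, regulators of lysosomal genes. RefSeq promoter windows (GRCm38.p6, 250 bases before to 50 after a gene's start) were given for 8 of the 10 genes, in 9 windows. *Ctsb* and *Ctsh* had none. The motif CACGTG, which reads the same on both strands, was found in windows of 4 of the 8 genes and of 8.09% of all 27025 genes with a window. The longer TCACGTGA, also its own reverse complement and holding CACGTG within it, was found for 2 of the 8 and for 1.125% of all genes. Capitals mark the motif, the strand is that of the gene, and the distance, where given, is that of the C of CACGTG before the gene's start.
*Ctsd*, chr7:142387908-142387937, minus strand, 98 bases before the start: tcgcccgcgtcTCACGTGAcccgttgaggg
*Ctsd*, chr7:142388048-142388077, minus strand, at the far end of the window: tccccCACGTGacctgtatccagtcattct
*Ctsf*, chr19:4855074-4855103, plus strand, 79 bases before the start: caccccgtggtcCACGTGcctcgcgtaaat
*Ctsa*, chr2:164833749-164833778, plus strand, 12 bases before the start: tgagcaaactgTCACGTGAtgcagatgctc
*Ctsl*, chr13:64370739-64370768, minus strand, at the far end of the window: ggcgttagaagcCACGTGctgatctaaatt
The *Ctsa* window is the second of its 2 and holds a further TCACGTGA just after the start. The windows of *Ctsc*, *Ctsk*, *Ctss* and *Ctsz* do not hold these letters. A match is a description of the sequence. *Ctsd*, *Ctsf*, *Ctsa* and *Ctsl* do not share 1 pattern over the groups.

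*Ctsa* (ENSMUSG00000017760.16, chr2:164674778-164682961, plus strand) encodes cathepsin A, which also protects the lysosomal enzymes neuraminidase 1 and beta-galactosidase. It varied least of the 10 genes, from 138.1 CPM in UOS to 247.1 CPM on plate 1. The levels were 140.3 CPM in LOS, 196.3 in MOS, 212.2 on plate 2, 191.2 on plate 5, 165.4 on plate 6, 213.8 in OSalive and 142.9 in OSapop. From OSalive downwards each group's interval overlapped that of the next. After thinning, between 63.6% of cells on plate 6 (7 of 11) and 95.2% in LOS (20 of 21) had a count.

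**Figure D2:**
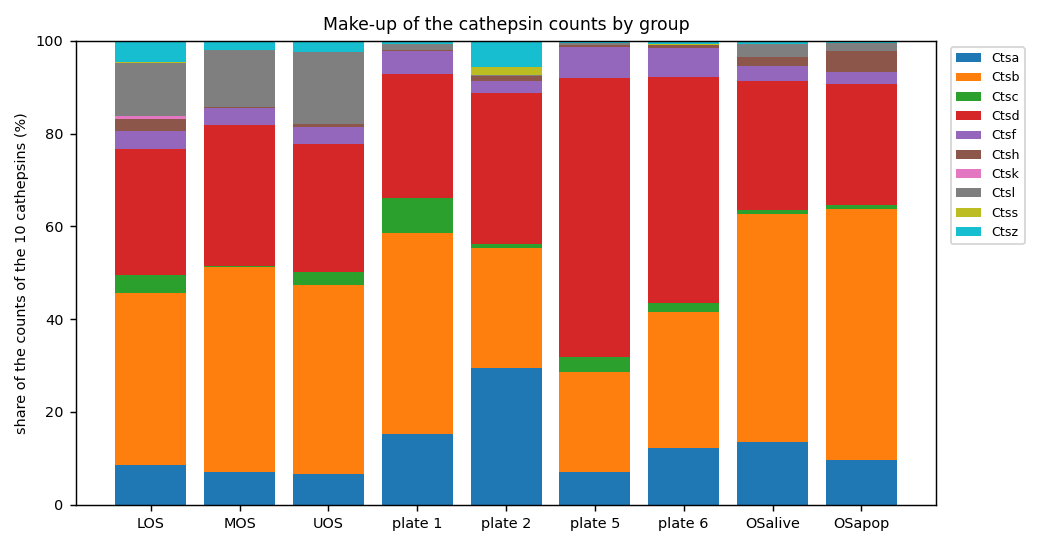
Share of the counts of the 10 cathepsin genes taken by each gene (y axis, percent, stacked to 100) in the 9 groups (x axis). *Ctsb* and *Ctsd* fill most of each bar, *Ctsd* takes 60.2% on plate 5, and *Ctsl* takes 15.5% in UOS and 2.79% in OSalive.

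*Ctsl* (ENSMUSG00000021477.9, chr13:64507151-64518704, minus strand), which encodes cathepsin L, set the anagen groups apart from the catagen groups. Its level was 190.6 CPM in LOS, 335 in MOS and 320.5 in UOS, against 23.6 on plate 1, 1.54 on plate 2, 13.2 on plate 5, 44.5 in OSalive and 25.3 in OSapop. No count was found among the 441410 of plate 6, which allows up to 8.36 CPM. The lowest anagen group (LOS, interval 174.5 to 207.8 CPM) lay above the highest catagen group (OSalive, 42.8 to 46.3 CPM), whereas MOS and UOS had overlapping intervals. After thinning, 89.7% of UOS cells (all but 11, interval 82.3% to 94.8%), 75.0% of MOS cells (21 of 28) and 76.2% of LOS cells (16 of 21) had a count. In catagen it was 26.6% of OSalive cells (33 cells, 19.1% to 35.3%), 15.0% of OSapop cells (12 of 80), 2 of 18 on plate 1, 1 of 15 on plate 5 and none of 7 on plate 2 and 11 on plate 6. Most catagen cells were therefore at 0 at this depth, while some reached anagen levels, with 507 CPM in the highest OSalive cell against a UOS median of 292.4 CPM. Without thinning, 40.8% of OSalive cells (51 cells) had a count of *Ctsl*, although OSalive is the deepest group, and 90.2% of UOS cells (all but 11) did. In UOS the 16 cells with markers of other types, described under *Ctsc*, were at 94.1 CPM of *Ctsl* and the other 96 at 415 CPM. In LOS 23 such cells were at 133.8 CPM and the other 16 at 443 CPM.

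**Figure D3:**
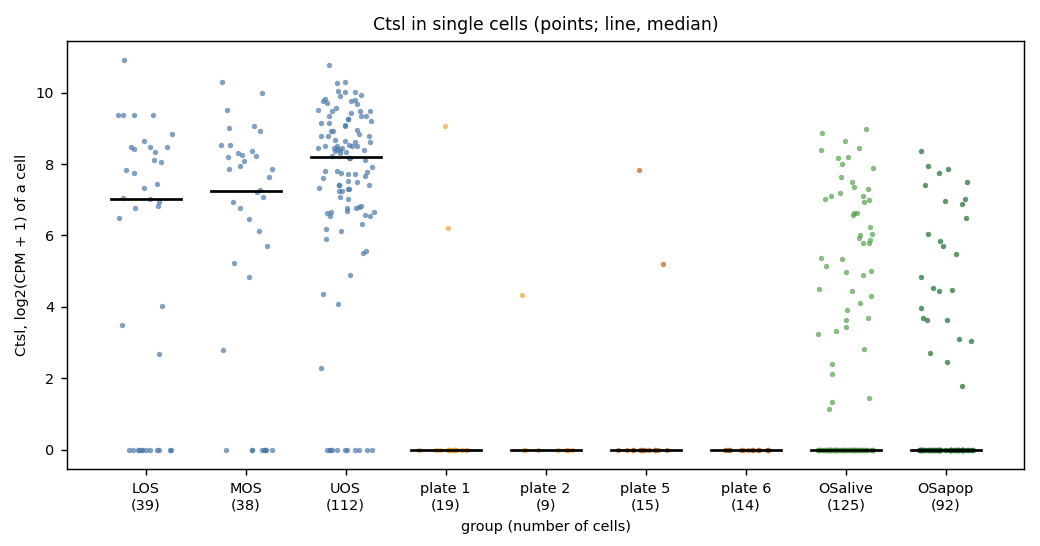
*Ctsl* in each of the 463 cells, as log2(CPM + 1) of the cell (y axis), by group (x axis, with the number of cells). The black line is the median, which is above 0 in LOS, MOS and UOS and at 0 in the 6 catagen groups.

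Over the 9 groups, *Ctsl* had the widest range of the members, 8.39 on the log2(CPM + 1) scale. The genes closest to it were *Aga* (r = 0.98), which encodes a lysosomal amidase that trims glycoproteins, *Tmem176b* (r = 0.97), which encodes a membrane protein, and *Sumo3* (r = 0.97), a small ubiquitin-like modifier. *Aga* stood at 16.1 CPM in UOS and 16.6 in MOS, at 5.55 in OSalive and 3.81 in OSapop, and at 0 counts on plates 2 and 6.

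*Ctsz* (ENSMUSG00000016256.10, chr2:174267304-174280832, minus strand), which encodes the carboxypeptidase cathepsin Z, was also higher in anagen. It reached 74.02 CPM in LOS, 57.2 in MOS and 48.4 in UOS, whose intervals overlapped from each to the next. Plate 2 lay at 39.98 CPM, with an interval of 26.1 to 58.6 that overlaps UOS. The remaining groups were at 12.3 CPM (plate 5), 11.1 (OSalive), 10.03 (plate 1), 9.06 (plate 6) and 6.78 (OSapop), each with an interval that overlapped the next. A count was found in 47.7% of thinned UOS cells (51 cells, 37.9% to 57.5%) and 11.3% of thinned OSalive cells (14 cells, 6.31% to 18.2%).

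*Ctsc* (ENSMUSG00000030560.17, chr7:87927092-87960096, plus strand) encodes cathepsin C, or dipeptidyl peptidase 1, which activates the granule proteases of immune cells. It had counts in 70 of 463 cells, and a few cells set its level. It was at 65.1 CPM in LOS, 8.56 in MOS, 58.2 in UOS, 120.3 on plate 1, 6.15 on plate 2, 88.98 on plate 5, 24.9 on plate 6, 16.1 in OSalive and 12.6 in OSapop. A single cell gave 86.4% of the counts in OSalive, 62.5% on plate 1 and 39.8% in UOS. Of the UOS cells, 16 carried several markers of another cell type, by a rule made after the values were seen (given with the processing), and these were at 164.2 CPM of *Ctsc* against 13.9 CPM in the other 96. In OSalive, 3 such cells were at 638 CPM and the others at 2.04 CPM. On plate 5, where no cell carried such markers, 6 of 15 cells had a count, and on plate 1 none of the *Ctsc* counts came from such a cell. All 16 of these UOS cells and 20 of 23 such cells in LOS met the rule for inner root sheath and matrix markers.

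*Ctsh* (ENSMUSG00000032359.14, chr9:89936205-89958148, plus strand) encodes cathepsin H, an aminopeptidase, and had counts in 22.2% of the 463 cells. It was highest in OSapop with 67.4 CPM, then 43.3 in LOS, 28.5 in OSalive and 15.8 in UOS. The other groups were at 11.5 CPM (plate 5), 7.69 (plate 2), 7.49 (MOS), 6.80 (plate 6) and 3.58 (plate 1), with intervals that overlapped from each to the next. The share of thinned cells with a count was alike in OSapop (23.8%, 19 of 80, 15.0% to 34.6%) and OSalive (21.8%, 27 cells, 14.9% to 30.1%). In OSapop 1 cell gave 27.3% of the counts, and *Ctsh* stood at 30.4 CPM in set 1 and 100.2 CPM in set 2, against 28.4 and 30.6 CPM in OSalive. All 10 LOS cells with *Ctsh* were among the 23 LOS cells with several markers of another type, and none of the other 16 LOS cells had a count. These shares are without thinning and the 23 cells were on average deeper than the other 16, so the part of depth was not told apart from cell type.

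*Ctss* (ENSMUSG00000038642.10, chr3:95433963-95463717, plus strand) and *Ctsk* (ENSMUSG00000028111.4, chr3:95406178-95416732, plus strand) were near the limit of detection. *Ctss* encodes cathepsin S, which trims the invariant chain of MHC class II molecules in antigen-presenting cells, and *Ctsk* encodes cathepsin K, the collagenase of osteoclasts that fibroblasts also make. *Ctss* had 82 counts in 6 cells: 10 counts in 3 LOS cells, 9 in 1 cell of plate 2, 2 in 1 cell of plate 6 and 61 in 1 OSalive cell. The 3 LOS cells had counts of a median of 10 of 16 macrophage and dendritic markers, the median of the other LOS cells was 0, and the OSalive cell had counts of 11. The cell on plate 2 had 1 such marker and that on plate 6 had none. In UOS *Ctss* had no count, which allows up to 0.215 CPM. *Ctsk* had 56 counts in 7 cells: 26 counts in 3 LOS cells, 5 in 3 UOS cells and 25 in 1 OSalive cell, and the OSalive cell had counts of 6 of 6 fibroblast markers. The sort had excluded cells with CD45 or CD140a at the surface, the proteins of *Ptprc* and *Pdgfra* in these 2 marker lists.

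**Figure D4:**
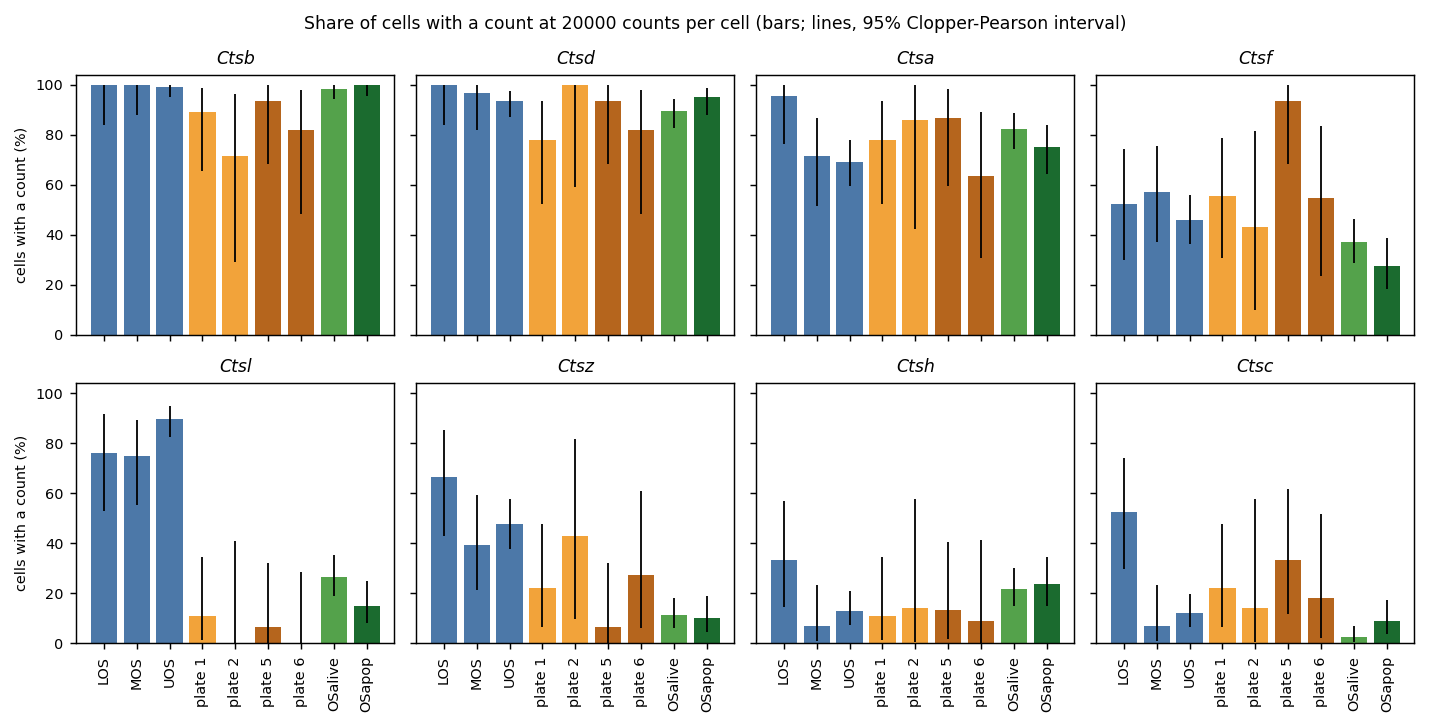
Share of cells with a count (y axis, percent) in the 9 groups (x axis), for the 8 genes with over 1000 counts, after each cell was thinned to 20000 counts. Lines are 95% Clopper-Pearson intervals. *Ctsb* and *Ctsd* are found in most cells of every group, and *Ctsl* is at 89.7% in UOS and 26.6% in OSalive.

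The comparison of OSalive with UOS sets upper ORS cells of late catagen, sorted as alive, beside cells of late anagen. The labelled region of UOS is upper-middle ORS, so the regions differ in label as well as the stages. Of the 8 cathepsins with enough counts, 3 were lower in OSalive by 2-fold or more and none was higher, where 18.7% of all 14078 genes compared were lower and 16.8% higher. *Ctsl* was 7.20-fold lower (log2 ratio -2.85, interval -2.92 to -2.78), *Ctsz* 4.35-fold lower (-2.12, -2.27 to -1.97) and *Ctsc* 3.61-fold lower (-1.85, -1.98 to -1.72). The other 5 lay between -0.44 for *Ctsf* and 0.85 for *Ctsh*, and *Ctsa* was at 0.63. *Ctsh* passed 2-fold with the mean of single-cell CPM (1.06) and without the cell with the most of its counts in each group (1.17). The median of the 8 log2 ratios was -0.41, against 0.05 for all genes compared. *Ctsl* was at 46.6 and 42.5 CPM and *Ctsz* at 10.1 and 13.1 CPM in sets 1 and 2 of OSalive, whereas *Ctsc* was at 0.410 and 36.1 CPM. Without the cells that carry markers of other types, 16 UOS and 3 OSalive cells were left out, and *Ctsl* was at -3.22 and *Ctsz* at -2.24. The *Ctsc* ratio depended on few cells: it was -0.86 with the mean of single-cell CPM, -4.00 without the cell with the most *Ctsc* counts in each group, and 0.04 without the 5 deepest cells of each group. OSalive, LOS, MOS and the CatVI plates are all set against the same UOS cells.

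**Figure D5:**
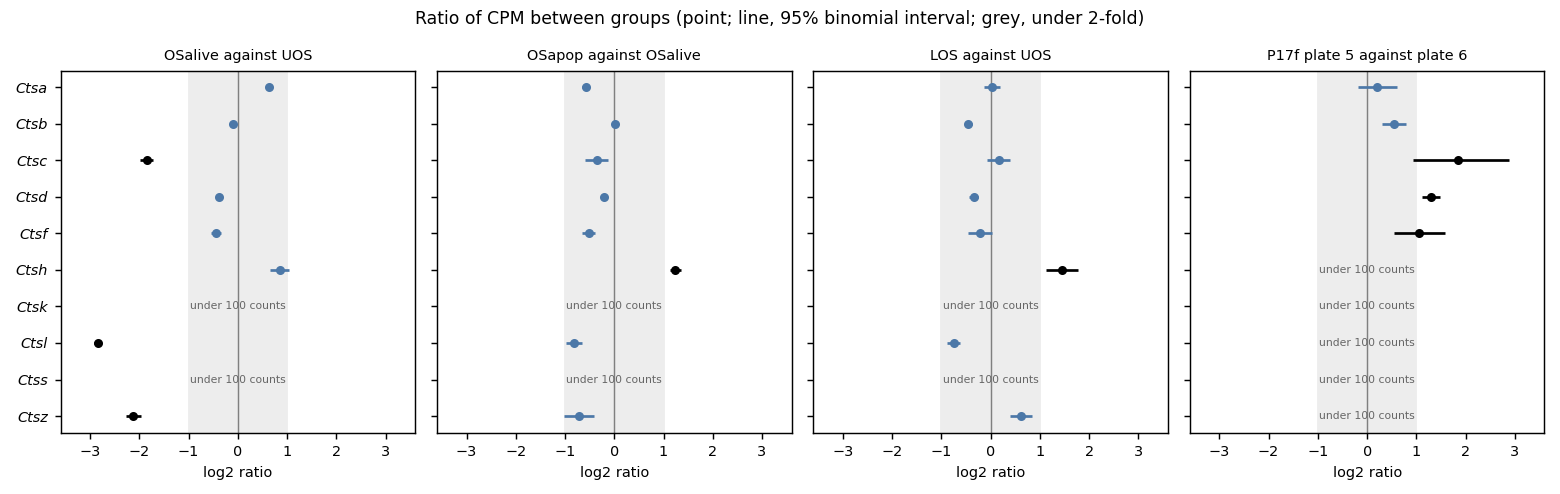
Log2 ratio of CPM (x axis) of each cathepsin gene (y axis) in 4 comparisons, with 95% binomial intervals. The grey band is under 2-fold, black points lie beyond it, and *Ctsl* at -2.85 in OSalive against UOS is the lowest. Genes with under 100 counts over both groups have no point.

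The CatVI cells titled alive gave the same direction for *Ctsl* and *Ctsz* at lower depth, but not for *Ctsc* (log2 ratio to UOS 0.53). Plates 1 and 2 together held 34 counts of *Ctsl* and were at 16.6 CPM, 19.3-fold below UOS (log2 ratio -4.27, -4.80 to -3.79). *Ctsz* was at 19.5 CPM there (-1.31) and *Ctsh* at 4.89 CPM (-1.70). These 3 of 8 genes lay 2-fold or more apart where 43.6% of 11226 genes did. Between plates 1 and 2, which carry one title, *Ctsb* was 3.76-fold, *Ctsf* 4.27-fold and *Ctsc* 19.6-fold higher on plate 1. Those 3 of the 5 genes with enough counts compare with 37.1% of genes that were higher on plate 1. *Ctsf* and *Ctsc* had 12 and 4 counts on plate 2, so they passed the minimum only through plate 1, where they are higher. On plate 1, 2 cells with several endothelial markers were at 324 CPM of *Ctsl* and the other 17 at 3.06 CPM. Of those 2 cells, 1 had a count of *Ctsl*, and it gave 29 of the 34 counts of plates 1 and 2.

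Within AnaVI, LOS and UOS had 1 of 8 cathepsins apart, *Ctsh*, which was 2.74-fold higher in LOS (log2 ratio 1.45, 1.13 to 1.77), where 28.4% of 11418 genes lay 2-fold apart in either direction. Without cells with markers of other types, *Ctsh* had no count in LOS and the sign of the ratio turned. *Ctsl* was at -0.75 in this comparison and at 0.09 without those cells, and *Ctsf* was at -0.21 and at 1.30 without them. *Ctsc* was at 0.16 and at 2.11 without the 5 deepest cells of each group. MOS had 2 of 8 genes lower than UOS, *Ctsc* (-2.77) and *Ctsh* (-1.08), where 18.9% of genes were lower. *Ctsb*, *Ctsd* and *Ctsa* were each 1.42- to 1.46-fold higher in MOS.

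Of 8 cathepsins with enough counts, 1 was 2-fold or more higher in apop than in alive cells of CatVII. *Ctsh* was 2.37-fold higher in OSapop (log2 ratio 1.24, 1.13 to 1.35), where 8.60% of 13806 genes were higher, and the ratio was 0.92 without the cell with the most *Ctsh* counts in each group. The mean of single-cell CPM gave 0.74. The difference in *Ctsh* lay in set 2 (log2 ratio 1.71, 1.57 to 1.86), and in set 1 the ratio was 0.10 (-0.12 to 0.31). Between apop and alive cells, 28.1% of 11939 genes lay 2-fold apart in either direction within set 1 and 25.8% of 11992 within set 2. *Ctsb* was at 0.02 (-0.01 to 0.04). *Ctsd* was at -0.20, *Ctsf* at -0.52, *Ctsa* at -0.58, *Ctsz* at -0.71 and *Ctsl* at -0.81 (-0.97 to -0.66), each lower in both sets. The sign for *Ctsz* turned with the mean of single-cell CPM, which was 10.1 in OSapop and 9.45 in OSalive (log2 ratio 0.10). *Ctsl* was at -1.14 in set 1 and -0.55 in set 2. *Ctsc* was at -0.36 over all cells, at 1.72 without the cell with the most of its counts in each group and at 2.59 without cells with markers of other types.

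The apop plates of CatVI compare cells titled Phago and NonPhago. Of 5 cathepsins with enough counts, 3 were higher on plate 5 than on plate 6: *Ctsc* 3.57-fold (log2 ratio 1.84, 0.94 to 2.88), *Ctsd* 2.47-fold (1.30, 1.124 to 1.486) and *Ctsf* 2.07-fold (1.05, 0.54 to 1.59). The *Ctsc* level of plate 6 rests on 11 counts, 7 of them from 1 cell with markers of another type, and without that cell the ratio was 3.08. Of 2822 genes, 20.4% were higher there and 8.58% lower. *Ctsb* (0.54) and *Ctsa* (0.21) were within 2-fold. Plate 6 was shallow, with a median of 24765 counts of named genes per cell against 75172 on plate 5, and without the 5 deepest cells of each plate *Ctsd* was at 0.91 and *Ctsf* at 0.78. Against the Phago alive cells of plates 1 and 2, plate 5 had 4.40-fold more *Ctsd* (370 against 1626 CPM, log2 ratio 2.14, 2.01 to 2.26) and 2.99-fold more *Ctsf* (1.58), so that 2 of 5 genes were higher where 11.9% of 5232 genes were. *Krt14*, a keratin of the ORS, was at 13137 CPM on plate 5 and 5641 CPM on plate 6, 3993 CPM on plate 1 and 697 CPM on plate 2, and its part in these differences was not tested.

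Inhibitors of the cysteine cathepsins were lower in OSalive than in UOS. Of 11 cystatin and stefin genes, 3 had enough counts, and all 3 were 2-fold or more lower, where 18.7% of all genes compared were. Their median log2 ratio was -2.94, against 0.05 for all genes. *Cst3*, which encodes the secreted cystatin C, was at 287.7 CPM in UOS and 135.01 in OSalive (log2 ratio -1.09), *Cst6*, which encodes cystatin E/M, an inhibitor of cathepsin L in skin, at 49.8 and 6.48 CPM (-2.94), and *Cstb*, which encodes the cytosolic stefin B, at 78.2 and 6.21 CPM (-3.65). Without cells with markers of other types, *Cst6* was at 25.7 CPM in UOS and 6.59 in OSalive, and *Cstb* at 74.8 and 6.27 CPM. The other groups did not divide by stage. On plate 5 all 3 genes were above UOS, at 395.6 (*Cst3*), 114.5 (*Cst6*) and 87.2 CPM (*Cstb*). In LOS, on plates 1 and 6 and in OSapop all 3 were below UOS, with *Cst6* at 11.8 CPM in LOS. Plate 2 (215.3 CPM) and MOS (67.4 CPM) were above UOS in *Cst6* only. On plate 5 *Cst6* was 8.43-fold and *Cstb* 3.50-fold higher than on plate 6, with 6 and 11 counts on plate 6.

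Of 16 genes for processing, delivery and partners of cathepsins, 5 were higher in OSalive than in UOS and none was lower, where 16.8% of all genes compared were higher and 18.7% lower. The median log2 ratio of the 16 was 0.40, against 0.05 for all genes. *Mitf*, a transcription factor related to TFEB, was at 28.1 CPM in UOS and 217.6 CPM in OSalive (log2 ratio 2.95), and *Tfeb* at 4.73 and 13.6 CPM (1.52). In the other AnaVI groups *Tfeb* was at 11.5 CPM (LOS) and 9.63 CPM (MOS). *Gnptab* (43.5 and 145.7 CPM, 1.74), *Gnptg* (10.3 and 23.5 CPM, 1.18) and *Nagpa* (14.7 and 29.5 CPM, 1.003) build the mannose 6-phosphate tag. With all gene counts as the base of CPM, unnamed identifiers included, these ratios shift by -0.37, which leaves *Gnptg* and *Nagpa* under 2-fold. On the CatVI plates 1, 2, 5 and 6 *Mitf* was at 25.8, 118.4, 26.4 and 40.8 CPM. *Gnptab* was at 22.9, 116.9, 36.1 and 47.6 CPM there. In the melanocyte list, of which *Mitf* is a known regulator, 3 of 6 genes had counts in OSalive, with a sum of 4.48 CPM against 54.7 in UOS, and *Tyrp1* and *Mlana* had none. *Psap*, which encodes prosaposin, and *Lamp2*, a membrane protein of the lysosome, led the list by level, at 1060 and 970 CPM in UOS and 1406 and 1045 CPM in OSalive. Of the other 12 cathepsin family genes, only *Ctso* and *Ctsw* had enough counts in this comparison. *Ctsw*, a cathepsin of cytotoxic lymphocytes, was 9.38-fold higher in OSalive (0.409 and 3.84 CPM) on 7 counts in UOS, and *Ctso* was at 30.8 and 22.1 CPM. MOS, also of AnaVI, was above OSalive in *Ctsw*, at 7.49 CPM. T cell markers had no count in OSalive, where 3 counts of a gene are 0.054 CPM.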

How the data were processed

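Counts were at hand for 1036 of 1037 listed cells, and 1 of these, whose labels conflict, belongs to no group. The authors trimmed reads, aligned them with STAR 2.6 to mm39 and quantified them with Salmon 1.4.0, and the estimated counts per gene they deposited carry no normalization. They were rounded to whole numbers (10.9% of nonzero values were not whole). The 92 spike-ins were left out. Of the identifiers, 93.3% had a name, but an unnamed one took 65.5% and all unnamed ones 79.2% of counts, so CPM are relative to the counts of named genes. Per-kilobase levels used canonical transcripts. A 0 beside counts was set to 3 counts. Cells were thinned once, without replacement. The 10 genes, lists and comparisons were chosen with earlier results of these data known. Values are given for all 10 genes, for members of related lists past 2-fold in a comparison or leading by level, and for the 3 nearest genes of *Ctsd* (highest per kilobase) and *Ctsl* (widest range), among genes at 10 CPM or more in a group. Cells with markers of other types had counts of 5 or more of 16 macrophage and dendritic, 5 or more of 6 fibroblast, 4 or more of 6 melanocyte, 3 or more of 4 endothelial or 4 or more of 7 inner root sheath and matrix markers. They numbered 23 in LOS, 4 in MOS, 16 in UOS, 2, 2, 0 and 1 on plates 1, 2, 5 and 6, 3 in OSalive and 1 in OSapop. The rule was applied without thinning, so that deep cells can meet it more easily. In LOS and UOS, though not in every group, the cells that met it were on average deeper than the others. Wells with several cells were excluded by the authors by qPCR, and no doublet caller was run. Of 161 well labels in 2 columns, 100 had both cells passing, and no pair was alike beyond the 99th percentile of its group. Sets of CatVII cells, a split added after the data were seen, are the 2 series in which the library number in the title rises with the well. The computation of ratios was checked on simulated Poisson counts, which hold the error of counting only and do not test the spread between cells. Intervals were computed with scipy 1.17.1 (pandas 2.3.3, numpy 2.4.6, Python 3.11.15). Enrichment and clustering were not run.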

Additional observations from a re-analysis of the deposited data

Results flagged for a closer look

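The difference between apop and alive cells ran in opposite directions at the 2 catagen stages for *Ctsd* and *Ctsf*. In CatVI the log2 ratio of plate 5 to plates 1 and 2 was 2.14 for *Ctsd* and 1.58 for *Ctsf*, and in CatVII the ratio of OSapop to OSalive was -0.20 and -0.52, with -0.21 and -0.56 in set 1 and -0.19 and -0.51 in set 2. Each group is 1 sample, and the difference between the stages was not tested. The cell that belongs to no group had 8 counts of cathepsins among its 10456 counts of named genes, 4 of *Ctsa* and 4 of *Ctsb*.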

How the results depend on the processing

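Of the values for single genes under the alternatives, 77 of 78 kept the sign of the main ratio for OSalive against UOS, 86 of 93 for OSapop against OSalive, 68 of 78 for LOS against UOS and 43 of 45 for plate 5 against plate 6. These totals include the setting with no minimum of counts, which repeats the main ratio of each gene, so that its values could not change sign. Counting all genes, unnamed ones included, shifted every log2 ratio of OSalive to UOS by -0.37 and of OSapop to OSalive by 0.13. *Ctsl* in OSalive against UOS ranged from -3.22 to -2.78 and *Ctsz* from -2.82 to -2.06. *Ctsc* turned there to 0.037 without the 5 cells with the most counts, and *Ctsh* in LOS against UOS turned to -1.59 without cells with markers of other types, an alternative that, like leaving out the top cell and the split into sets, was added after the data were seen, with LOS at 0 counts set to 3. The number of cathepsins 2-fold apart in OSalive against UOS was between 2 and 4 throughout. For OSapop against OSalive it moved from 1 of 8 to 0 with the mean of single-cell CPM, 2 of 6 with thinning and 3 of 10 with no minimum of counts. It was 2 of 8 without cells with markers of other types and 2 of 8 without the top cell of each gene. Within set 1 of the CatVII cells it was 1 of 7, where 28.1% of all genes compared lay apart, and within set 2 it was 2 of 8, where 25.8% did. For LOS against UOS it moved from 1 to 2 with the mean of single-cell CPM, 0 with thinning, 2 without the 5 deepest cells, 3 with no minimum, 2 without cells with markers of other types and 2 without the top cell. For plate 5 against plate 6 it moved from 3 to 1 with thinning and 0 without the 5 deepest cells. The cause was not tested beyond fewer genes having 100 counts under thinning (2 for plates 5 and 6). Apart from the 2 sets, no share over all genes was computed under these alternatives. No paired analysis was possible because no result comes from a test and the labels give no replicate numbers. The 2 sets link alive and apop cells of CatVII, and *Ctsh* of OSapop against OSalive was at 0.10 in set 1 and 1.71 in set 2. Plates 5 and 6 limit what can be seen: 3 counts are 2.64 and 6.80 CPM there, against 0.054 CPM in OSalive.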

Other observations

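On plates 3 and 4, whose cells all fell under 2000 detected genes, the 67 and 57 cells held 872 and 2420 counts of named genes in all, and none of these was of a cathepsin. The Poisson limits allow up to 4230 and 1524 CPM for the sum of the 10 genes. The first limit lies above the level of each of the 9 groups and the second above those of plate 2, plate 6 and OSapop.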
